A study of Mus musculus with 180 samples.

Results

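CXCL9, CXCL10 and CXCL11 are the 3 chemokines that bind the receptor CXCR3, and they were chosen here by gene symbol. Their genes are 3 of the 45070 rows of the table of normalized exonic read values, each symbol has 1 row, and all 3 are among the 12714 genes tested, those with a mean of at least 10 over the samples. The study asked how clinical kinase inhibitors (CKIs) alter the response of macrophages to lipopolysaccharide (LPS), the bacterial ligand of TLR4. Wild type mouse bone marrow-derived macrophages, grown from C57/BL6 bone marrow, were given 1 of 58 CKIs or the vehicle DMSO for 1 h and then 10 ng/ml LPS for 2 h, and polyadenylated RNA was sequenced. All 180 samples, controls included, were therefore stimulated, and no unstimulated sample was analysed here. Each CKI had 3 samples and DMSO had 6, in 2 sets of 3. The CKIs were used at concentrations set by the affinity for the intended target of each, so concentrations differ between CKIs.

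CXCR3 is carried mainly by activated T cells and NK cells, and its ligands recruit these cells to sites of inflammation. Macrophages make the ligands when interferons reach them. In the response to LPS, TLR4 signals through the kinase TBK1 and the transcription factor IRF3 to induce Ifnb1, and the secreted interferon beta binds its receptor IFNAR, which activates the Janus kinases JAK1 and TYK2 and, through them, the transcription of interferon-stimulated genes (ISGs). Cxcl10 is also a direct target of IRF3 and NF-kB, whereas Cxcl9 is best known as a gene that responds most to interferon gamma. Cxcl11 is an ISG, and C57BL/6 mice carry a frameshift in it, so that its RNA is measured here without a full-length protein.

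The 3 genes lie side by side on the minus strand of chromosome 5 (mm10), within 41966 bases. Cxcl9 spans chr5:92321331-92328079, Cxcl10 chr5:92346638-92348889 and Cxcl11 chr5:92359544-92363296, with exons that sum to 2905, 1101 and 1605 bases. Cxcl10 and Cxcl11 lie inside Art3, a gene of the plus strand, and exons of Art3 overlap those of Cxcl10 in the GENCODE annotation. The counting was not stated to use strand, so reads of overlapping genes could not be told apart, but Art3 itself was listed at 0 to 6 in all samples, with a DMSO mean of 1.33. The nearest genes outside the cluster, Naaa, Sdad1 and Nup54, ranged from 375 to 992, from 98 to 356 and from 474 to 1004.

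The sequences just before the start sites of Cxcl9 and Cxcl10 were searched for matches to 3 short motifs. Both are from RefSeq (GRCm38.p6, the build also called mm10), read 5′ to 3′ on the minus strand over the 250 bases before the start, at chr5:92328080-92328329 for Cxcl9 and chr5:92348890-92349139 for Cxcl10, and 2 of the 3 genes had an entry. Capitals mark matches, on either strand, to the core of the interferon-stimulated response element (ISRE, 2 copies of GAAA with any 2 bases between them), the interferon gamma-activated site (GAS, TTCNNNGAA) or the kB motif bound by NF-kB, and matches of 1 motif may overlap.
Cxcl9: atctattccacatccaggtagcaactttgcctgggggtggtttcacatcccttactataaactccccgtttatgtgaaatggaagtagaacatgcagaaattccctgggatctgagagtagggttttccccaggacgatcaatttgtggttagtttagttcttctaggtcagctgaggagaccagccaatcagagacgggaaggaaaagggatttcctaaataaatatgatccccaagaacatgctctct
Cxcl10: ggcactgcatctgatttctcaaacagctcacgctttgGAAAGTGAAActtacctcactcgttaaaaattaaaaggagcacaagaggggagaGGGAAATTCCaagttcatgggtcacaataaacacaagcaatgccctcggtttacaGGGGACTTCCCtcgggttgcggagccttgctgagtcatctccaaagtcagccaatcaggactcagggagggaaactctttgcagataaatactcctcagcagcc
The Cxcl10 window holds 1 ISRE core, at -213 to -204 from the start, and kB matches at -159 to -150 and at -104 to -94, where the matches overlap. It holds no GAS match, and the Cxcl9 window holds none of the 3 motifs in these letters. Of 32851 promoter windows of the same length, 2.98% held the ISRE core, 7.02% the GAS and 7.25% the kB motif. Sites that depart from these letters were not counted. A match describes letters only, and none was tested for binding.

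The samples had the markers of macrophages and few of other cells. Csf1r, the receptor of the macrophage growth factor, ranged from 21875 to 29924, while the 6 T and NK cell markers summed to at most 10 and the 3 B cell markers to at most 5 in any sample. Neutrophil markers summed to between 121 and 1444, with Ly6g at 0 in 111 of 180 samples, and the 4 dendritic cell markers to between 33 and 162. Cxcr3 itself was low, from 60 to 204. In bulk RNA, fewer cells of a type and less RNA per cell cannot be told apart. The normalized totals ran from 9477340 to 12273349 per sample. These are scaled values, and the read depth behind them is unknown.

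In LPS-stimulated cells given DMSO, Cxcl10 was by far the most abundant of the 3. Its values were 81575, 64411 and 56043 in the first DMSO set and 112277, 58561 and 56861 in the second, a mean of 71621 ± 22068 (SD, n = 6). Per kilobase of exon it was the 7th highest of the 12714 genes tested. Cxcl11 read 1355, 1178, 619, 1741, 1026 and 660 in the same order, a mean of 1096.5 ± 427.2 (SD, n = 6). Cxcl9 read 499, 599, 195, 759, 413 and 225, a mean of 448 ± 218 (SD, n = 6). Per kilobase of exon, the DMSO mean of Cxcl10 was 95.2 times that of Cxcl11 and 422 times that of Cxcl9, and the Cxcl11 mean was 4.43 times that of Cxcl9. The 2 DMSO sets differed by 0.09 (Cxcl9), 0.11 (Cxcl10) and 0.08 (Cxcl11) on the log2 scale, with standard errors of 0.80, 0.34 and 0.40 and adjusted p of 1 for each, and limma called 0 genes between the sets (310 at an unadjusted p under 0.05).

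Cxcl9 varied most from sample to sample. The highest DMSO sample was 3.89 times the lowest for Cxcl9, 2.81 times for Cxcl11 and 2.00 times for Cxcl10. The third replicate of each set was the lowest of that set for all 3 genes. The standard error of a CKI's log2 fold change was accordingly 0.69 for Cxcl9, 0.34 for Cxcl11 and 0.30 for Cxcl10. A change of Cxcl9 had to be larger than one of Cxcl10 to pass the test.

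**Figure D1:**
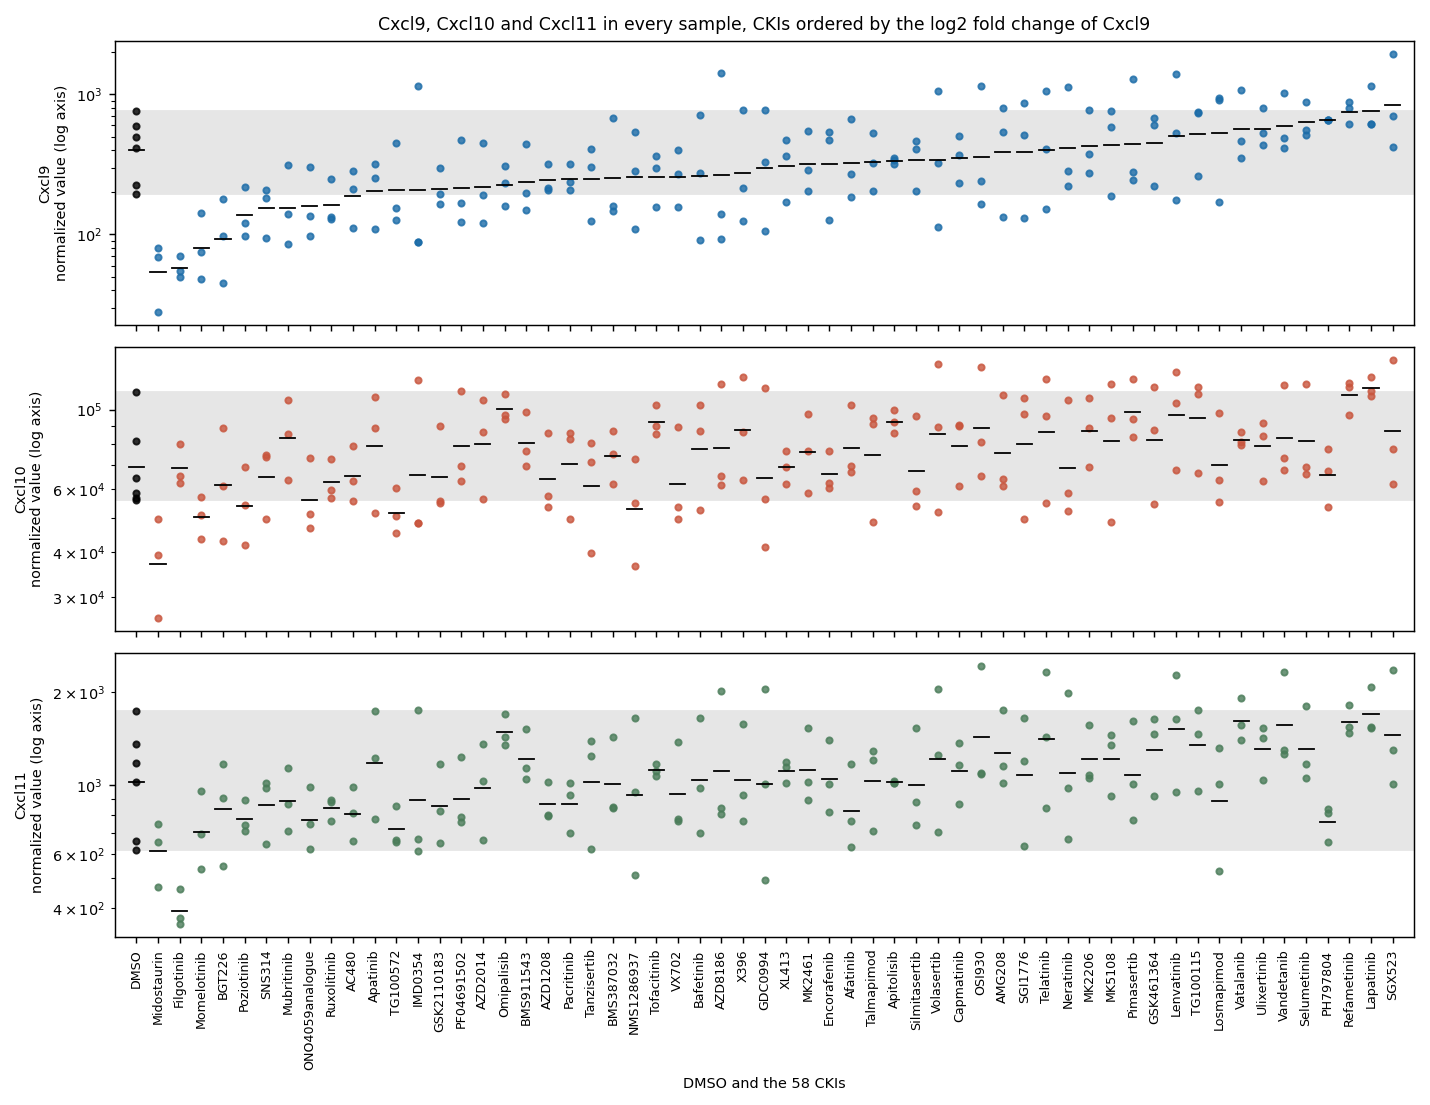
Normalized values of Cxcl9, Cxcl10 and Cxcl11 (log axes) in each of the 180 samples, with DMSO first and the 58 CKIs ordered by the log2 fold change of Cxcl9. Points are samples, bars are means taken on the log scale, and the grey band spans the 6 DMSO samples. The samples of Midostaurin, Filgotinib, Momelotinib and BGT226 lie below the band for Cxcl9, and the order of the CKIs is not that of Cxcl10 or Cxcl11.

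Of the 58 CKIs, 3 lowered Cxcl9 (Midostaurin, Filgotinib and BGT226), 1 lowered Cxcl11 (Filgotinib) and 0 lowered Cxcl10, and 0 raised any of the 3 genes. Changes are log2 fold changes of normalized value plus 1 against the 6 DMSO samples, called at a Benjamini-Hochberg adjusted p under 0.05 over all genes tested with that CKI. Over all genes and CKIs, limma called 1.65% of the comparisons lower and 2.52% higher. By that background, 3 of 58 CKIs is a larger share for Cxcl9 (5.17%) and 1 of 58 a like share for Cxcl11 (1.72%), and 1623 genes (12.8% of those tested) were lowered by at least 3 CKIs. At an unadjusted p under 0.05, the counts lower and higher were 6 and 0 for Cxcl9, 1 and 2 for Cxcl10 and 2 and 1 for Cxcl11. All 3 samples lay below all 6 DMSO samples with 4 CKIs for Cxcl9, 1 for Cxcl10 and 1 for Cxcl11, against 2.02% of all comparisons. They lay above all 6 with 0 CKIs for any of the 3 genes, against 4.52% of all comparisons. The CKIs used by name in what follows all share the same 6 DMSO samples.

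Midostaurin, a broad-spectrum inhibitor that binds TBK1 among its targets, gave the lowest Cxcl10 and nearly the lowest Cxcl9. Its Cxcl9 values were 69, 28 and 80, a mean of 59 ± 27.4 (SD, n = 3), and all lay below the lowest DMSO sample. Cxcl9 fell 7.33-fold (log2 fold change -2.87 ± 0.69 SE, adjusted p = 0.00354), where 1.93% of genes were called lower with Midostaurin. The second Midostaurin sample had the lowest value, and without it Cxcl9 was at -2.41 on the log2 scale with an adjusted p of 0.0816. Cxcl10 read 39423, 26285 and 49657, also below every DMSO sample. Its log2 fold change was -0.90 ± 0.30 (SE) with an adjusted p of 0.0619. With the replicate number as a block, which the deviations of same-numbered Midostaurin and DMSO samples allow, the adjusted p was 0.00757, and 2.72% of genes were then called lower. Cxcl11 read 750, 467 and 656, of which 2 lay inside the DMSO range, and its log2 fold change was -0.74 ± 0.34 (SE, adjusted p = 0.242).

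Filgotinib, a JAK inhibitor (JAKi) designed against JAK1, lowered Cxcl9 and Cxcl11, while its Cxcl10 samples lay inside the DMSO range. Cxcl9 read 70, 55 and 50 with Filgotinib, a mean of 58.3 ± 10.4 (SD, n = 3), the lowest of the 59 groups. The fall was 6.83-fold (log2 fold change -2.77 ± 0.69 SE, adjusted p = 0.00157). Cxcl11 read 460, 356 and 371, below all DMSO samples, and fell 2.61-fold (log2 fold change -1.38 ± 0.34 SE, adjusted p = 0.0014). With Filgotinib 14.6% of genes were called lower, so that a lowered gene was common in this comparison. Cxcl10 read 80083, 65409 and 62279, with a log2 fold change of -0.01 ± 0.30 (SE, adjusted p = 0.988). Leaving out replicate 2 of every group left Cxcl11 at -1.26 with an adjusted p of 0.0663.

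BGT226, an inhibitor of PI3K and mTOR, lowered Cxcl9 without a detectable change of the other two. Its Cxcl9 values were 179, 45 and 98, a mean of 107 ± 67.5 (SD, n = 3), and the highest of them lay just below the lowest DMSO sample, 195. The fall was 4.29-fold (log2 fold change -2.10 ± 0.69 SE, adjusted p = 0.013), where 6.32% of genes were called lower with BGT226. Without the second BGT226 sample the log2 fold change was -1.59 and did not pass the test (adjusted p = 0.137). Cxcl10 read 89034, 43148 and 61441 and Cxcl11 read 1173, 546 and 909, both overlapping DMSO, with log2 fold changes of -0.16 ± 0.30 and -0.30 ± 0.34 (SE).

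Momelotinib, designed against JAK1 and JAK2, had the third lowest Cxcl9. The values were 142, 48 and 75, a mean of 88.3 ± 48.4 (SD, n = 3), all below every DMSO sample. The log2 fold change was -2.31 ± 0.69 (SE), with an adjusted p of 0.10 without the replicate block and 0.0282 with it. Calls were rare with this CKI, at 0.409% of genes lower, and 0.684% with the block. Cxcl10 read 57185, 43713 and 50890, of which 1 value lay inside the DMSO range (log2 fold change -0.46 ± 0.30 SE, adjusted p = 0.631), and Cxcl11 read 955, 534 and 696 (log2 fold change -0.53 ± 0.34 SE, adjusted p = 0.626).

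Lapatinib, an inhibitor of EGFR and ERBB2, gave the highest means of Cxcl10 and Cxcl11. Cxcl10 read 108947, 123128 and 113064, a mean of 115046 ± 7295 (SD, n = 3), 1.66 times DMSO by the fit, and only the highest DMSO sample, 112277, reached into that range. The log2 fold change was 0.73 ± 0.30 (SE), with an adjusted p of 0.059 without the block and 0.0133 with it. Cxcl11 read 1538, 2076 and 1537, with a log2 fold change of 0.73 ± 0.34 (SE), an adjusted p of 0.101 without the block and 0.0433 with it. With Lapatinib, 18.1% of genes were called higher without the block and 24.6% with it. With the mitochondrial share added to the block fit, neither passed, at 0.39 (adjusted p = 0.268) for Cxcl10 and 0.48 (adjusted p = 0.313) for Cxcl11. Without the first sample of the second DMSO set, the adjusted p was 0.0225 for Cxcl10 and 0.0434 for Cxcl11, and without that of the first set it was 0.0491 for Cxcl10. Cxcl9 read 616, 1150 and 615, with a log2 fold change of 0.92 ± 0.69 (SE, adjusted p = 0.318). Over all 58 CKIs, the block fit called 3.08% of the comparisons lower and 4.60% higher. With the block, the CKIs that lowered Cxcl9, Cxcl10 and Cxcl11 numbered 4, 1 and 1, and those that raised them 0, 1 and 1.

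**Figure D2:**
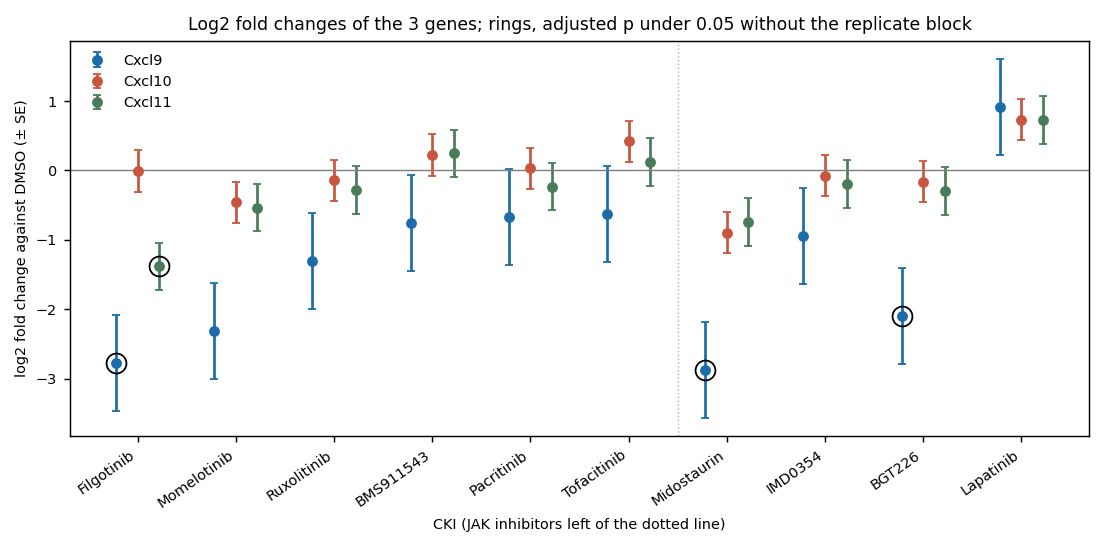
Log2 fold changes of the 3 genes against DMSO, with their standard errors, for the 6 JAKi and 4 other CKIs (n = 3 each, against 6 DMSO samples). Black rings mark adjusted p under 0.05 without the replicate block: Cxcl9 and Cxcl11 with Filgotinib, and Cxcl9 with Midostaurin and BGT226.

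All 6 JAKi had a Cxcl9 log2 fold change below 0, from -2.77 with Filgotinib to -0.63 with Tofacitinib, with a median of -1.03. Over all 58 CKIs, 41 had a Cxcl9 log2 fold change below 0, so that a value below 0 was common. Ruxolitinib, against JAK1 and JAK2, read 134, 248 and 128. Pacritinib, against JAK2 and FLT3, read 319, 238 and 206, and BMS911543, against JAK2, read 198, 150 and 443. Tofacitinib, designed against JAK3, read 363, 158 and 299. Each of these 4 overlapped the DMSO range, and none passed the test, with log2 fold changes of -1.30, -0.68, -0.76 and -0.63. For Cxcl10, 3 of the 6 JAKi had a log2 fold change below 0 and the range was -0.46 to 0.42, and for Cxcl11 4 of 6 did, with a range of -1.38 to 0.25. Differences among the JAKi were not tested, and their concentrations differed.

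Among the other classes, Cxcl9 had a log2 fold change below 0 in 6 of 7 PI3K and mTOR inhibitors, against 41 of all 58 CKIs. The PI3K and mTOR inhibitors ran from -2.10 with BGT226 to 0.39 with TG100115. Of the RAF, MEK and ERK inhibitors 2 of 6 were below 0, from -0.42 with GDC0994 to 0.91 with Refametinib. Apart from BGT226, no CKI of these 2 classes passed the test. Refametinib, an inhibitor of MEK, had the second highest Cxcl10 mean, 110305 ± 11725 (SD, n = 3), with values of 118411, 96861 and 115644 and a log2 fold change of 0.67 ± 0.30 (SE, adjusted p = 0.153). The third highest Cxcl10 mean was that of Omipalisib, a PI3K inhibitor, at 100430 ± 8816 (SD, n = 3). At the other end, TG100572, developed against SRC and given at a concentration set by its affinity for TYK2, had the third lowest means of both Cxcl10, 52041 ± 7724, and Cxcl11, 726 ± 115 (SD, n = 3). The highest Cxcl9 mean was that of SGX523, an inhibitor of MET, at 1026 ± 816 (SD, n = 3), where values of 1954, 421 and 704 gave a log2 fold change of 1.06 ± 0.69 (SE, adjusted p = 0.852). Vandetanib and Vatalanib, both against VEGFR, followed Lapatinib for Cxcl11, with means of 1629 ± 596 and 1627 ± 261 (SD, n = 3).

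IMD0354, designed against the IkB kinase IKBKB, split by sample. Its Cxcl9 values were 1146, 88 and 88, its Cxcl10 values 120675, 48365 and 48454 and its Cxcl11 values 1750, 614 and 669, so that 1 sample lay above the highest DMSO sample for all 3 genes. The other two lay below the lowest DMSO sample for Cxcl9 and Cxcl10, and 1 of them did for Cxcl11. No direction can be read from them, and the log2 fold changes were -0.94, -0.08 and -0.20.

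Across the 59 groups, means ranged 17.6-fold for Cxcl9 between the lowest and the highest CKI, 4.34-fold for Cxcl11 and 2.99-fold for Cxcl10. Of the 58 pairs of neighbours in the order of group means, all 58 overlapped in their samples for Cxcl9 and for Cxcl10, and 57 for Cxcl11. The pair without overlap was Filgotinib and Midostaurin, by a narrow gap between the highest Filgotinib sample, 460, and the lowest Midostaurin sample, 467. DMSO ranked 37th from the lowest of 59 for Cxcl9, 21st for Cxcl10 and 30th for Cxcl11, and the median log2 fold change over the CKIs was -0.40, 0.17 and 0.02.

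**Figure D3:**
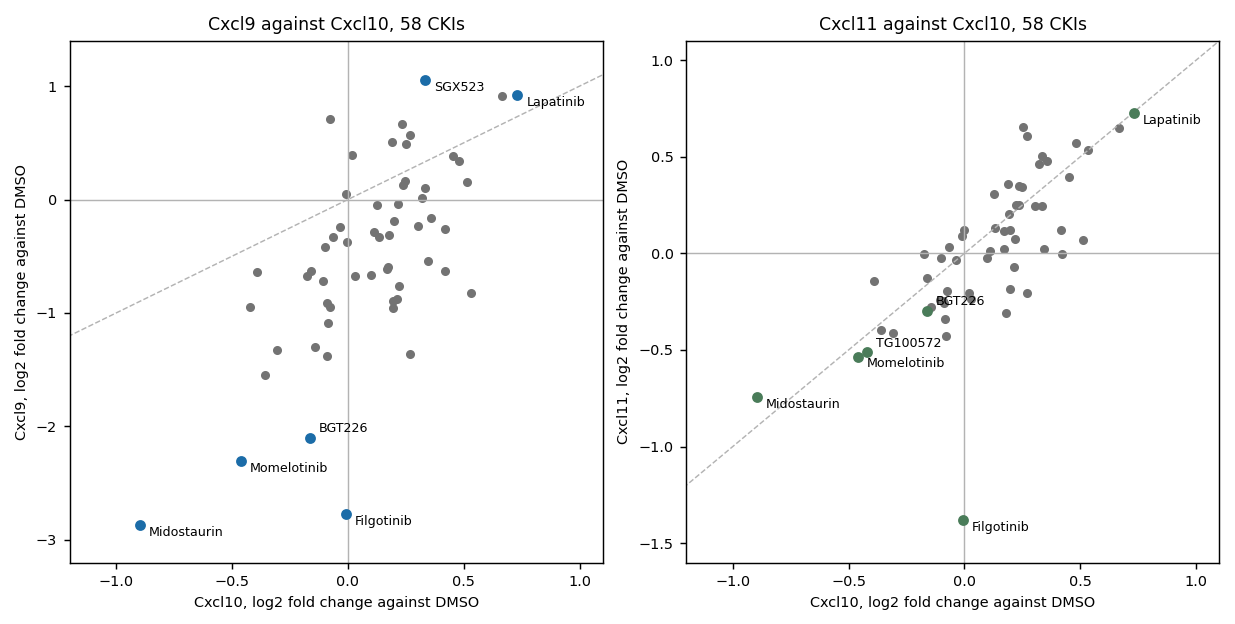
Log2 fold changes against DMSO of Cxcl9 (left) and Cxcl11 (right) plotted on that of Cxcl10 for the 58 CKIs, all against the same 6 DMSO samples. The dashed line marks equal changes, and the axes of the panels are scaled differently. Filgotinib sits at -0.01 for Cxcl10, -2.77 for Cxcl9 and -1.38 for Cxcl11, while Lapatinib lies at 0.73 for Cxcl10 and for Cxcl11.

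The log2 ratio of Cxcl9 over Cxcl10 within a sample was -7.35, -6.75 and -8.16 in the first DMSO set and -7.21, -7.14 and -7.97 in the second, a mean of -7.43 ± 0.54 (SD, n = 6). These are ratios of normalized values, not per length. With Filgotinib it was -10.14, -10.19 and -10.25, with Midostaurin -9.14, -9.82 and -9.26, with BGT226 -8.95, -9.87 and -9.28 and with Momelotinib -8.64, -9.80 and -9.39. None of these overlapped DMSO. The differences from DMSO were -2.76, -1.98, -1.94 and -1.85, each with a two-sided exact permutation p of 0.0119, the smallest that 84 splits of 3 and 6 samples can give. Over the 174 tests of 3 ratios and 58 CKIs the smallest adjusted p was 0.0942, so no ratio passed after adjustment. A total of 48 of 58 CKIs had a lower mean ratio of Cxcl9 over Cxcl10 than DMSO, and 13, all lower, had an unadjusted p under 0.05. All 3 samples lay below all 6 DMSO samples with 8 CKIs, those named here included, and above them with 0. These tests all use the same 6 DMSO samples. No share over other pairs of genes was computed, so the counts have no background beside them.

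The ratio of Cxcl11 over Cxcl10 spread less over the CKIs. It averaged -6.08 ± 0.31 (SD, n = 6) in DMSO and its difference from DMSO ran from -1.37 to 0.40, where that of Cxcl9 over Cxcl10 ran from -2.76 to 0.79, with 1 of 58 at an unadjusted p under 0.05. That CKI was Filgotinib, at -7.44, -7.52 and -7.39, a difference of -1.37 (exact permutation p = 0.0119, adjusted p = 0.0942). With Midostaurin, Momelotinib and BGT226 the ratio differed from DMSO by 0.15, -0.07 and -0.13, with exact permutation p of 0.50, 0.726 and 0.50. The ratio of Cxcl9 over Cxcl11 moved most with Midostaurin, by -2.13, and 50 of 58 CKIs had a lower mean than DMSO. All 3 samples lay below all 6 DMSO samples with 13 CKIs and above them with 1. That 1 was the p38 inhibitor PH797804, named here after its values were seen (difference 1.14, exact permutation p = 0.0119, adjusted p = 0.0942). The counts of these 2 ratios also share the 6 DMSO samples and have no background beside them.

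**Figure D4:**
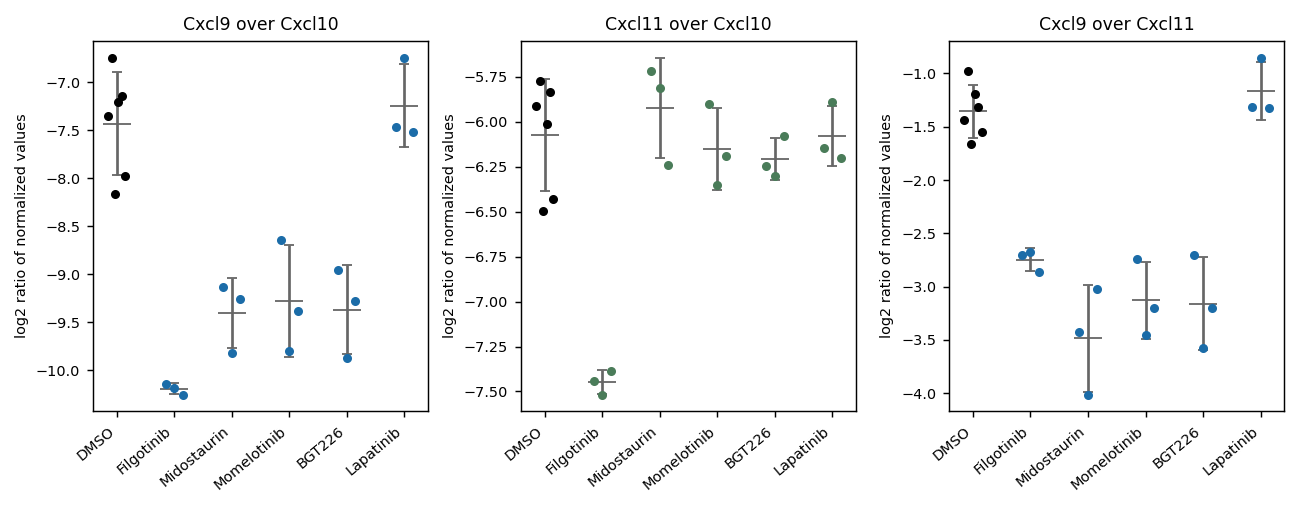
Log2 ratios of normalized values between the 3 genes in each sample of DMSO (n = 6) and 5 CKIs (n = 3 each). Points are samples, and dashes with bars are means ± SD. The 3 Filgotinib samples lie below DMSO in all 3 ratios, while Midostaurin, Momelotinib and BGT226 lie below DMSO in the ratios with Cxcl9 but overlap it for Cxcl11 over Cxcl10.

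The interferon arm upstream of the 3 genes differed between the CKIs that lowered Cxcl9. Ifnb1, the interferon beta gene, averaged 122 ± 71.5 (SD, n = 6) in DMSO. It fell with Midostaurin to a mean of 10.0 (log2 fold change -3.36 ± 0.40 SE). It rose with BGT226 to a mean of 453 (log2 fold change 1.68 ± 0.40 SE) and with Lapatinib to 372 (1.75 ± 0.40 SE). With Filgotinib it was 184 (log2 fold change 0.71 ± 0.40 SE, adjusted p = 0.196) and with Momelotinib 59.3 (-0.87 ± 0.40 SE, adjusted p = 0.414). Irf1, which encodes a transcription factor of the interferon gamma response, fell with Midostaurin, Filgotinib and Momelotinib (log2 fold changes of -1.06, -0.89 and -0.80) and rose with BGT226 (0.58, SE 0.19 for each). Cxcl9 was lower with Midostaurin, where Ifnb1 and Irf1 fell, and with BGT226, where both rose. Ifnb1 also rose with Tofacitinib and IMD0354, by log2 fold changes of 1.45 and 1.87, and no member passed the test with either.

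**Figure D5:**
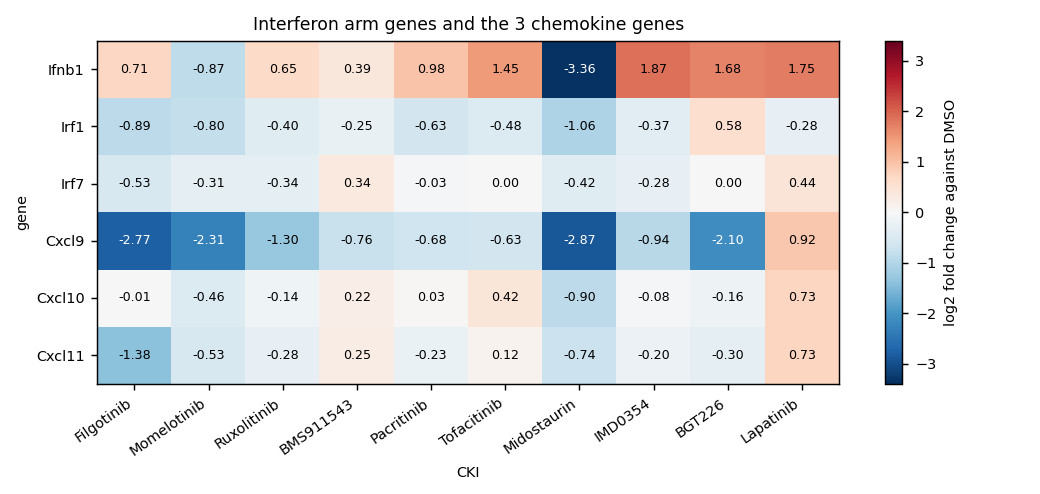
Log2 fold changes against DMSO of 3 genes of the interferon arm and of the 3 chemokine genes with the 6 JAKi and 4 other CKIs, printed in each cell and coloured from blue (lower) to red (higher). Midostaurin has the lowest Ifnb1 (-3.36), while Cxcl9 is low both with Midostaurin (-2.87) and with BGT226 (-2.10), where Ifnb1 is high (1.68).

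Of 30 ISGs, 13 fell and 0 rose with Midostaurin, where 1.93% of all genes were called lower. The median log2 fold change was -0.83 against 0.11 over all genes. Rsad2, which encodes the antiviral protein viperin, and Ifit2 had log2 fold changes of -2.88 and -2.19. With Filgotinib, where 14.6% of all genes were called lower, 11 of 30 fell and 0 rose (median -0.79 against -0.04 over all genes). Among the 11 were Iigp1, an interferon-inducible GTPase, at -2.99 and Mx1 at -1.72. With Momelotinib 3 fell and 0 rose (6 fell with the block), where 0.409% of all genes were called lower (0.684% with the block). The median was -0.66 against 0.11. With BGT226 0 fell and 3 rose, where 24.1% of genes were called higher, and the median was 0.33 against 0.21. With Lapatinib 0 fell and 7 rose (15 with the block), where 18.1% of genes were called higher (24.6% with the block), with a median of 0.68 against 0.11, Isg15 rising by a log2 fold change of 1.90.

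Of 8 IFNAR signalling genes, 5 fell and 0 rose with Filgotinib, where 14.6% of all genes were called lower. Among the 5 were Socs1, a feedback inhibitor of JAKs, at a log2 fold change of -3.05 and Stat2 at -1.39. Of the same 8, 0 passed the test with Midostaurin or Momelotinib, 1 fell and 1 rose with BGT226, and 3 fell and 1 rose with Lapatinib. Of the 8 genes of the interferon gamma and IRF1 arm, 5 fell with Filgotinib, 3 with Midostaurin and 2 with Momelotinib, Irf8 among them each time (-2.23, -1.23 and -1.39), whereas with BGT226 0 fell and 4 rose. With Lapatinib 3 of these 8 fell and 0 rose. Of the 12 genes that lead to Ifnb1, 6 rose and 0 fell with BGT226, including Traf3 (1.35) and Irf3 (0.57). With Midostaurin 1 of the 12 fell, which was Ifnb1 itself, and 0 rose (1 with the block). The shares of all genes called lower were 1.93% with Midostaurin, 0.409% with Momelotinib and 6.32% with BGT226. Called higher were 24.1% with BGT226 and 18.1% with Lapatinib. Lapatinib had 2964 of 12714 genes called in either direction, of which 2295 were higher and the rest lower.

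Of 7 other CXC chemokine genes tested, 0 fell with Midostaurin, Filgotinib, BGT226 or Momelotinib, and 2, 3, 3 and 3 rose, where 2.63%, 6.10%, 24.1% and 0.378% of all genes were called higher. Cxcl1, a neutrophil attractant induced through NF-kB, rose with all 4, by log2 fold changes of 1.01, 1.16, 1.34 and 1.35. Cxcl3 rose with Midostaurin, Filgotinib and Momelotinib (0.84, 0.60 and 1.29). Among 12 CC chemokine genes, Ccl2 and Ccl4 fell with Midostaurin (log2 fold changes of -0.98 and -1.02), while 3 fell and 1 rose with the block, 1 rose with Filgotinib, where 6.10% of genes were called higher, and 9 rose with Lapatinib, where 18.1% were. Of 15 NF-kB target genes, 4 fell and 1 rose with Midostaurin, 1 fell and 3 rose with Filgotinib, and 4 fell and 6 rose with BGT226. The shares of all genes called lower and higher were 1.93% and 2.63%, 14.6% and 6.10%, and 6.32% and 24.1% with these 3 CKIs. Tnf, the inflammatory cytokine, fell with Midostaurin (-0.99) and rose with Filgotinib (1.09).

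None of the 7 macrophage, 4 neutrophil, 1 dendritic cell and 2 stromal markers tested passed without the block with Midostaurin, Filgotinib or Momelotinib. With the block, 2.72% of all genes were called lower with Midostaurin. Among these were Mertk and Xcr1, at log2 fold changes of -0.52 and -0.74 (adjusted p = 0.027 and 0.0493). The dendritic cell marker sum with Midostaurin was 45 to 54 against 61 to 92 in DMSO. With BGT226, 6.32% of all genes were called lower and 24.1% higher. Mpo and Elane, granule genes of myeloid precursors, fell with BGT226 (log2 fold changes of -2.12 and -1.86), and Csf1r and Mertk rose (0.16 and 1.22). Its neutrophil marker sum was 129 to 360, against 185 to 526 in DMSO. With Lapatinib, Cd68, Fcgr1, S100a8 and S100a9 rose, by 1.53, 1.22, 1.58 and 1.77. Of the 7 macrophage markers 2 rose, and 4 with the block, where 18.1% of all genes were called higher (24.6% with the block). The neutrophil marker sum with Lapatinib was 742 to 974, and the macrophage marker sum was 167272 to 205143 against 82123 to 185730 in DMSO. The mitochondrial share of the normalized total was 1.92% to 3.71% with Lapatinib and 0.76% to 1.94% in DMSO. The part of the marker differences in the values of the 3 genes was not tested. The T and NK cell markers summed to at most 7 and the B cell markers to at most 4 in any sample of these 5 CKIs.

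Over the 59 group means on the log2 scale, the Pearson correlation was 0.66 between Cxcl9 and Cxcl10, 0.78 between Cxcl9 and Cxcl11 and 0.73 between Cxcl10 and Cxcl11. The groups share a culture system, and the values share their scaling. Within groups, the deviations of the 180 samples from their group means correlated more closely, at 0.80, 0.90 and 0.92. The 3 transcripts varied together from sample to sample within a treatment.

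The genes whose 59 group means were most like those of Cxcl9 were Iigp1 (Pearson 0.92), Tgtp1 (0.89), Tgtp2 (0.89), Tnfsf10 (0.85) and Trim21 (0.85). For Cxcl10 they were Pnp (0.92), Pnp2 (0.90), H2-T22 (0.89), Isg15 (0.89) and Irgm1 (0.88), and for Cxcl11 Daxx (0.87), Trim30c (0.87), Iigp1 (0.87), Ifi47 (0.87) and Mx1 (0.85). For the mean of the 3 genes they were Igtp (0.94), H2-T22 (0.93), Gm12250 (0.92), Irgm1 (0.92) and Tgtp1 (0.91). Tgtp1 and Tgtp2, and Pnp and Pnp2, are near-identical copies whose reads the counting could split, so their separate values are uncertain. Ifnb1 correlated at 0.25 with Cxcl9, 0.58 with Cxcl10 and 0.31 with Cxcl11. Irf1 correlated at 0.43, 0.28 and 0.49, and Tnf at 0.13, 0.58 and 0.19. These are descriptions over groups of 3 to 6 samples.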

How the data were processed

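Poly(A) RNA of the 180 samples was sequenced by SMART-seq2, which keeps no strand. The authors aligned reads to mm10 with TopHat2 2.1.1, with at most 1 alignment reported per read. They removed blacklisted regions (bedtools 2.29.2), counted reads on RefSeq exons and scaled the counts on invariant genes. The deposited values are rounded to whole numbers, treated here as a score and called normalized values. They are no longer read counts, so the count models that the authors used (DESeq2, R 3.6.2) were not run. Values plus a pseudocount of 1 were put on the log2 scale and fitted with limma (version 3.58.1, variance trend) over the 59 groups, each CKI against all 6 DMSO samples, for genes with a mean of at least 10, at a Benjamini-Hochberg adjusted p under 0.05 for each CKI. Ratios were tested by exact permutation. The fit was tested on simulated data. Same-numbered samples deviated from their group means with a mean correlation of 0.23 (-0.11 for different numbers). Deviations from a group mean cancel within the group, so the value for different numbers largely follows from the first and is no separate contrast. With Midostaurin, Momelotinib and Lapatinib every same-numbered pair with DMSO exceeded 0.1. For these the fit with the replicate number as a block is given where it changed a call of a member. It is also given where it moved a list count reported here by over 1.5 times. The methods call the replicates independent biological ones. The members and gene lists were chosen with earlier results of these data known. CKIs were named where a member passed a test, where a group mean was among the 3 highest or lowest, or for JAKi, Midostaurin and IMD0354, and the 5 most correlated genes were named per member. Genes of the lists were counted, and those with the larger changes or a stated role were named. One gene is not reported here.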

Additional observations from a re-analysis of the deposited data

How the results depend on the processing

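The calls per gene were recomputed under other pseudocounts, filters, scalings, controls, moderation and adjustment, with a replicate block and without each replicate. The ratios were recomputed with a pseudocount of 10, within replicate numbers and without each replicate, and the list counts with the block only. Leaving out single samples of the 5 CKIs described was added after seeing the data. Leaving out replicates, the number of CKIs that lowered Cxcl9 ran from 1 to 3 (1 without replicate 2 of every group or of the CKIs), that lowered Cxcl11 from 0 to 1, that raised Cxcl10 from 0 to 2 and that raised Cxcl11 from 0 to 1. With the replicate block, 4 CKIs lowered Cxcl9, 1 lowered and 1 raised Cxcl10, and 1 raised Cxcl11. Every same-numbered pair with DMSO exceeded a correlation of 0.1 for 34 of 58 CKIs, which do not include Filgotinib and BGT226. Averaged over the replicate numbers, the correlation was 0.22 with Filgotinib and 0.28 with BGT226, against 0.23 with Midostaurin, which is included. The calls with Filgotinib and BGT226 stayed under the block, where 17 of 30 ISGs fell with Filgotinib and 6 rose with BGT226. The block with the mitochondrial share gave 1 CKI that lowered Cxcl10 and 0 that raised Cxcl10 or Cxcl11, so that Lapatinib lost both calls. Scaling by the median of ratios also gave 1 that lowered Cxcl10 (Midostaurin). Fitting only the groups compared gave 1 that raised Cxcl10 (Lapatinib). The cause was not tested. Scaling by the median of ratios moved the median over all genes by over 0.1 with 18 CKIs, among them BGT226 (-0.20) and Lapatinib (-0.11). Adjusting over all genes and CKIs together left Cxcl9 with BGT226 at an adjusted p of 0.0769 and brought Momelotinib to 0.0438. Cxcl9 with Filgotinib passed under all 29 alternatives, with log2 fold changes of -3.14 to -2.58 and adjusted p up to 0.0278. Cxcl9 with Midostaurin passed under 26 of 29 and with BGT226 under 24 of 29, and Cxcl11 with Filgotinib under 28 of 29. The ratio of Cxcl11 over Cxcl10 had an unadjusted p under 0.05 with 4 CKIs when splits were drawn within replicate numbers, and without single replicates its difference ran from -0.39 to 0.050 with BGT226 and from -0.25 to 0.17 with Momelotinib. With a replicate left out of both groups the ratio tests cannot go below 0.0667. After removal of group means and replicate numbers, the correlations were 0.76, 0.88 and 0.90 in the order given above. Leaving out the 3 CKIs that lowered Cxcl9, chosen after seeing the data, gave 0.60, 0.70 and 0.79. Unknown depth and 3 samples per CKI limit what could be seen of Cxcl9, whose standard error was 0.69.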

Other observations

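Samples numbered 1 read higher for all 3 genes over much of the series. Cxcl9 in the first sample of a CKI averaged 0.48 above its group mean on the log2 scale (SD 0.74 over 58 CKIs) and lay below it with 15 of 58, Cxcl10 averaged 0.29 above (below with 8 of 58) and Cxcl11 0.28 above (below with 14 of 58). In DMSO the first samples stood 0.62, 0.47 and 0.58 above the mean of the 6. For Cxcl9 and Cxcl11 the other numbers were less alike between CKIs and DMSO. Samples numbered 2 averaged -0.38 (Cxcl9), -0.19 (Cxcl10) and -0.17 (Cxcl11) from the group mean with the CKIs, against 0.31, -0.17 and 0.10 in DMSO. Those numbered 3 averaged -0.10, -0.10 and -0.11 with the CKIs, against -0.93, -0.29 and -0.68 in DMSO.

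Apitolisib, an inhibitor of PI3K and mTOR, and PH797804, chosen after their values were seen, had unusually tight triplicates, with an SD of 8.5 around a mean Cxcl11 of 1023 for Apitolisib and of 3.79 around a mean Cxcl9 of 656 for PH797804. The groups of 3 were not screened for outlying samples. Among the 6 DMSO samples, the widest gap belonged to Cxcl10, whose highest sample stood apart by 0.55 of the range, below Dixon's limit for 6 samples.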
